A study of Mus musculus with 10 samples.

Results

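Peripheral myelin protein 22 (Pmp22) and the epithelial membrane proteins Emp1, Emp2 and Emp3 were followed in macrophages sorted from mouse mammary tumours. The family was singled out because Pmp22 was higher after drug treatment in these same libraries, and the question asked of the data was whether its 3 relatives moved with it. The family was thus chosen by the Pmp22 level in this contrast, whereas Emp1, Emp2 and Emp3 entered as relatives in sequence and not by their own values. All 4 genes were found by symbol, each as 1 locus listing no other gene, among 46957 loci in the tables. Tumours were grown from 4T1, a mouse mammary carcinoma line, injected into the mammary fat pad of BALB/cJ hosts, whose age and sex the labels do not give. The vehicle group (n = 5) received PBS. The JHU083 group (n = 5) received 1 mg/kg of JHU083, a prodrug of the glutamine antagonist 6-diazo-5-oxo-L-norleucine (DON), from day 7 to day 13. Both groups were harvested on day 14, and live cells positive for CD45, CD11b and F4/80 and negative for CD8, Ly6C and Ly6G were sorted. The labels do not say whether each sample came from its own mouse. The p-values therefore set the group difference against the spread between these samples, which need not be that between mice.

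The 4 proteins are small glycoproteins that cross the membrane as 4 helices and share the fold of the claudins. PMP22 is best known from the myelin of Schwann cells, where a change in its gene dose or sequence causes hereditary neuropathy, and it was also isolated as a transcript induced by growth arrest. The EMP proteins occur in many epithelia and in leukocytes and have been linked to cell adhesion, integrin signalling and membrane blebbing with the ATP receptor P2X7.

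Libraries held 11147723 to 15740487 fragments. Over all loci, 2296 of 12500 tested were higher and 2293 lower in JHU083, so 36.7% of all loci passed the threshold, an adjusted p under 0.05 in edgeR's quasi-likelihood test. With libraries scaled to their size alone the split was 1564 higher and 3141 lower. Of 8 macrophage markers, 3 were called higher, 0 lower and 5 did not pass, and their summed level ran from 9802 to 11299 CPM (fragments relative to library size) in vehicle and from 12699 to 14222 CPM in JHU083. In 5 of the 10 libraries (3 vehicle and 2 JHU083) the loci Rn18s-rs5 and Gm42418 were listed at 0, a split that the groups do not explain.

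In GENCODE M21 (GRCm38), Pmp22 lies on the forward strand at chr11:63128982-63159547, Emp1 on the forward strand at chr6:135362545-135383173, Emp2 on the reverse strand at chr16:10281749-10313968 and Emp3 on the reverse strand at chr7:45918023-45921404. All 4 are protein coding and 0 annotated genes overlap any of them, which matters because the library kit does not mark strand. The longest run of bases shared by transcripts of any pair of members was 22, between Pmp22 and Emp2. The submitters' processing notes name this build, but not the annotation, so the positions describe the genes of these names.

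Upstream DNA is shown so that members that moved apart can be compared in sequence. Each stretch lies within the 250 bases upstream of a RefSeq start (GRCm38.p6), without annotated exons, and reads 5′ to 3′ on the gene's own strand. They cover chr11:63128732-63128981 (the outermost Pmp22 start), chr11:63131207-63131456 (a further Pmp22 start), chr6:135362708-135362903 (Emp1, cut to the stretch without annotated exons, so that it ends short of the RefSeq start at 135362931), chr16:10313969-10314218 (Emp2) and chr7:45921427-45921676 (Emp3). The Emp1 stretch and that of the further Pmp22 start lie inside the GENCODE span of their gene, downstream of its outermost start. Capitals mark matches on either strand to motifs of AP-1, the TATA box, the GC box, TEAD or PU.1, spelled out after the sequences, and matches may overlap.
Pmp22 outermost start: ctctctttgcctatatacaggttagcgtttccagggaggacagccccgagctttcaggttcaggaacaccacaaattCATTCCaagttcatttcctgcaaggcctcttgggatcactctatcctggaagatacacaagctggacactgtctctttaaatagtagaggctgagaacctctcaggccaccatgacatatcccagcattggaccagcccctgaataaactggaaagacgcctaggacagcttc
Pmp22 further start: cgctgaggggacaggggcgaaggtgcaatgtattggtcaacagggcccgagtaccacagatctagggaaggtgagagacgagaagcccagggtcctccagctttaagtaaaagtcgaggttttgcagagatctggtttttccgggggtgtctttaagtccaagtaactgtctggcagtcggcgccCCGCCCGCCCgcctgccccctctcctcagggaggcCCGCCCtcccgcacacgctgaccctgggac
Emp1: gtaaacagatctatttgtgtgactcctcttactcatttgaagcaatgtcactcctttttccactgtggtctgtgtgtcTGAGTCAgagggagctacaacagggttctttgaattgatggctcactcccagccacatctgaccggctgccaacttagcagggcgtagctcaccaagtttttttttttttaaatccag
Emp2: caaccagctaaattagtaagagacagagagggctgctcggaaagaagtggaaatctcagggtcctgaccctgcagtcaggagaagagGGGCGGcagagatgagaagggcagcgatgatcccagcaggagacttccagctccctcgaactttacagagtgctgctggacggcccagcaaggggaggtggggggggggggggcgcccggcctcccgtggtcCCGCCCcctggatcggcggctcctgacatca
Emp3: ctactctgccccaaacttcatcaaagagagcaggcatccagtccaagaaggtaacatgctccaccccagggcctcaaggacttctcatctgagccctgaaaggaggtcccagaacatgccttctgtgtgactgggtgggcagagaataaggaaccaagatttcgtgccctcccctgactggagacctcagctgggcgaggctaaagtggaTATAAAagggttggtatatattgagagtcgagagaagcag
The Emp1 stretch held 1 match to the AP-1 motif TGANTCA, found in 6.75% of 32851 upstream windows of 250 bases. The Emp3 stretch held 1 match to the TATA box TATAAA, found in 12.4% of windows. The outermost Pmp22 stretch held 1 match to the TEAD motif GGAATG, found in 12.6% of windows. The further Pmp22 stretch held 3 matches to the GC box GGGCGG, 2 of them overlapping. The Emp2 stretch held 2 matches to the GC box, found in 32.7% of windows. The PU.1 motif GAGGAAGT, found in 2.44% of windows, had 0 matches in these stretches. The RefSeq table lists more starts than are shown, 4 for Pmp22, 2 for Emp1, 1 for Emp2 and 2 for Emp3. In the full windows of 250 bases before them, CpG dinucleotides numbered 3, 14, 14 and 27 for Pmp22, 3 and 3 for Emp1, 11 for Emp2 and 1 and 3 for Emp3, against a median of 6 over all windows. Gene-level values do not show which start was used. A match describes letters in the window and is not a bound site.

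Pmp22 is the gene whose difference led to this family, so its values are a description without a test. In vehicle samples 1 to 5 it had 13.4, 12.6, 12.4, 9.82 and 13.1 CPM. In JHU083 samples 1 to 5 it had 50.0, 50.9, 42.2, 47.3 and 66.5 CPM. The lowest JHU083 sample was above the highest vehicle sample, and the spread was small in both groups, with coefficients of variation of 11.5% and 17.8%. The means were 12.3 ± 1.41 and 51.4 ± 9.13 CPM (SD, n = 5); on the log2 scale this is 2.06 ± 0.13 (SE), or 4.18-fold. Of the 12500 loci, 32 had a larger log2 increase. These values rested on 113 to 197 fragments per vehicle library and 566 to 1016 per JHU083 library.

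Emp1, first described as a growth-regulated membrane protein of epithelia and tumours, also rose, by a smaller factor. In vehicle samples 1 to 5 it had 230, 307, 361, 286 and 220 CPM. In JHU083 samples 1 to 5 it had 442, 511, 467, 594 and 587 CPM. The groups did not overlap, with 361 CPM in the highest vehicle sample and 442 CPM in the lowest JHU083 sample. The means were 281 ± 58.2 and 520.3 ± 68.8 CPM (SD, n = 5); on the log2 scale this is 0.89 ± 0.13 (SE), or 1.85-fold with a 95% interval of 1.52 to 2.25. The edgeR adjusted p over all loci was 0.00018. Over all loci, 18.4% were called higher, and 11.2% were higher with groups that did not overlap. Of the 12500 loci, 366 had a larger log2 increase than Emp1.

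Emp2, a membrane protein of lung and other epithelia that is linked to integrin and focal adhesion kinase signalling, went the other way. In vehicle samples 1 to 5 it had 7.33, 14.6, 13.9, 9.56 and 5.01 CPM. In JHU083 samples 1 to 5 it had 2.73, 2.33, 1.94, 3.21 and 2.68 CPM. All JHU083 samples were below all vehicle samples, and the vehicle samples differed among themselves by far more than the JHU083 samples, with coefficients of variation of 40.9% and 18.4%. The means fell from 10.1 ± 4.12 to 2.58 ± 0.48 CPM (SD, n = 5); on the log2 scale this is -1.96 ± 0.27 (SE), or 3.89-fold lower. The edgeR adjusted p was 0.000108, where 18.3% of all loci were called lower and 11.1% were lower without overlap. Of all loci, 119 had a larger log2 decrease. Emp2 was the least covered member, with 64 to 191 fragments per vehicle library and 26 to 42 per JHU083 library, and so had the largest counting error. On deposited FPKM with a pseudocount of 1 the log2 difference was -1.10, on a scale that understates changes of low genes.

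Emp3, a member expressed in leukocytes among other cells, did not pass the threshold. In vehicle samples 1 to 5 it had 138, 118, 108, 127 and 137 CPM. In JHU083 samples 1 to 5 it had 111, 107, 138, 118 and 110 CPM. The groups overlapped, with JHU083 replicate 3 close to the highest vehicle sample. The log2 difference was -0.11 ± 0.09 (SE, edgeR adjusted p = 0.369), with a 95% interval from -0.30 to 0.09. On a linear scale this interval runs from 0.811 to 1.06 of the vehicle level, so changes as large as those of the other 3 genes lie outside it.

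**Figure D1:**
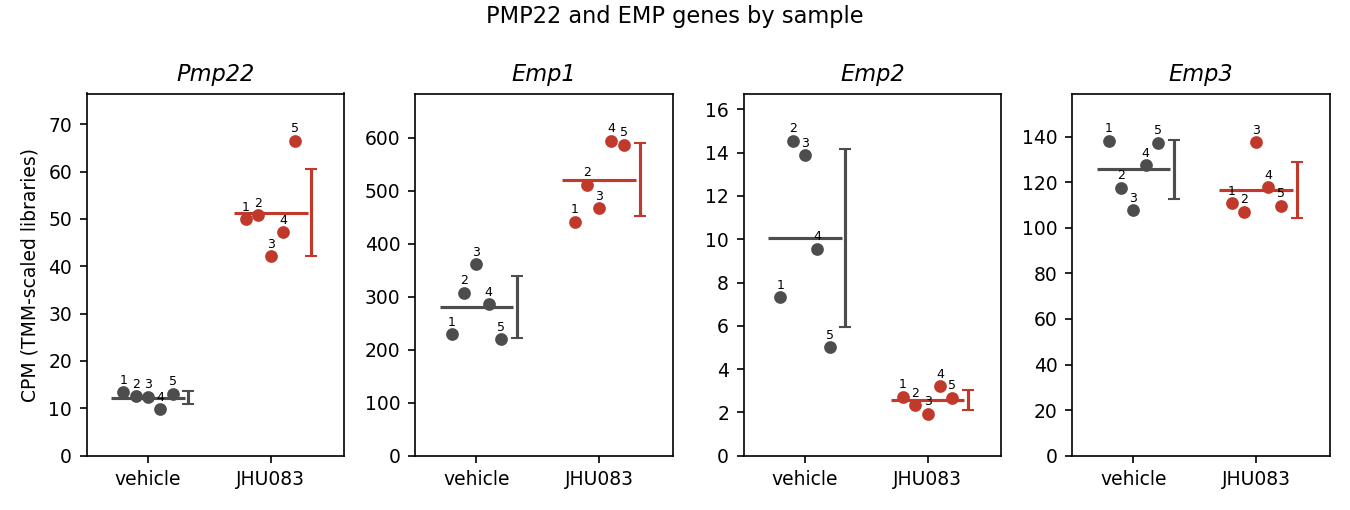
CPM of Pmp22, Emp1, Emp2 and Emp3 in each library (points, numbered by replicate) by treatment, with the group mean (line) and SD (bar, n = 5) and a separate vertical axis per gene. Pmp22 and Emp1 lie higher in all 5 JHU083 samples, Emp2 lies lower in all 5, and the Emp3 groups overlap.

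The EMP genes were also compared with each other inside each library, where scaling between libraries cancels. The log2 ratio of Emp1 to Emp2 was 4.86 ± 0.38 in vehicle and 7.59 ± 0.22 in JHU083 (SD, n = 5), a difference of 2.72. The ratio of Emp1 to Emp3 went from 1.14 ± 0.45 to 2.15 ± 0.27, a difference of 1.01, and that of Emp3 to Emp2 from 3.72 ± 0.77 to 5.43 ± 0.36, a difference of 1.71. For these 3 pairs the groups did not overlap, and each gave p = 0.0079 in an exact two-sided permutation test (adjusted p = 0.0079 over 3 pairs), the smallest value that 5 against 5 samples allow. For Emp1 to Emp3 the gap was narrow, with 1.74 in the highest vehicle sample and 1.76 in the lowest JHU083 sample. On deposited FPKM with a pseudocount of 1 or 0.1, that ratio had an exact permutation adjusted p of 0.0159. The 3 EMP genes thus differed from each other in their change. For Pmp22 the same ratios are given without a test: it moved by 1.14 more than Emp1, by 3.86 more than Emp2 and by 2.15 more than Emp3 on the log2 scale.

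Levels between genes are comparable only per length, here as the deposited FPKM (fragments relative to gene length and library size). Emp3 stood highest in vehicle at 228 ± 21.1 FPKM (SD, n = 5), then Emp1 at 104 ± 23.2, Pmp22 at 7.19 ± 0.87 and Emp2 at 2.87 ± 1.18. In JHU083 the order was the same, with Emp3 at 218 ± 22.7, Emp1 at 191 ± 25.4, Pmp22 at 30.9 ± 5.18 and Emp2 at 0.74 ± 0.14 FPKM. In vehicle the ranges of neighbours in this order did not overlap. In JHU083 those of Emp3 (202 to 256) and Emp1 (163 to 218) did, so their order there is not beyond the spread. Summed over the 4 genes, the level was 342 ± 5.59 FPKM in vehicle and 441 ± 26.9 in JHU083, with ranges of 333 to 347 and 402 to 467. The vehicle sums were nearly constant although Emp1 and Emp3 each varied. Emp3 supplied 66.8 ± 6.77% of the sum in vehicle and 49.5 ± 4.79% in JHU083, Emp1 30.3 ± 6.48% and 43.3 ± 4.10%, and Emp2 0.83 ± 0.34% and 0.17 ± 0.03% (SD, n = 5). Pmp22 supplied 1.64% to 2.27% in vehicle and 5.57% to 8.43% in JHU083.

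**Figure D2:**
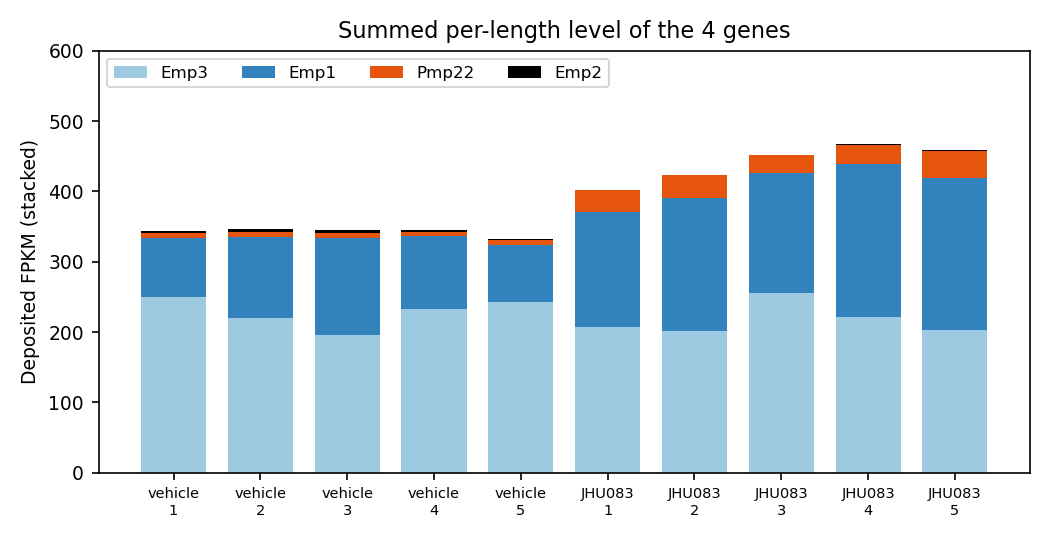
Deposited FPKM of the 4 genes stacked for each library. Emp3 and Emp1 make up most of every bar, the Pmp22 segment is taller in the 5 JHU083 libraries, and the sum runs from 333 to 347 in vehicle and from 402 to 467 in JHU083.

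The split of libraries by the 2 loci listed at 0 did not move any member across 0. Among libraries at 0 (3 vehicle, 2 JHU083) the log2 fold changes were 1.96 for Pmp22, 0.75 for Emp1, -2.05 for Emp2 and -0.03 for Emp3. Among the others (2 vehicle, 3 JHU083) they were 2.08, 0.92, -1.96 and -0.15. Leaving out each sample in turn gave 1.96 to 2.13 for Pmp22, 0.81 to 1.00 for Emp1, -2.13 to -1.79 for Emp2 and -0.17 to -0.07 for Emp3, and no call of an EMP gene changed.

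The family is widely expressed outside macrophages, so marker lists of other cell types were read in the same libraries. All 8 epithelial markers (Epcam, Cdh1, Esrp1 and 5 keratin genes) fell, where 18.3% of all loci were called lower, and their summed level ran from 283 to 606 CPM in vehicle and from 98.9 to 202 CPM in JHU083. Their median log2 fold change was -1.85, against 0.01 over all loci. Esrp1, at 0.68 ± 0.19 CPM in JHU083 (SD, n = 5), reached the test through its vehicle level. Krt8, a keratin of simple epithelia, fell from 144 ± 49.7 to 36.2 ± 11.2 CPM (SD, n = 5); on the log2 scale this is -1.99 ± 0.25 (SE, edgeR adjusted p = 5.47e-05). In bulk RNA, fewer cells of a type and less RNA per cell cannot be told apart.

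Emp2 moved with these markers inside the groups as well. In vehicle, the order of the samples by Emp2 (2, 3, 4, 1, 5 from high to low) was their order by the epithelial sum, at 606, 528, 432, 391 and 283 CPM. In JHU083 the orders differed, 4, 1, 5, 2, 3 by Emp2 and 4, 2, 1, 5, 3 by the sum. After group means were subtracted from log2 values, Emp2 and the sum had r = 0.86 over 10 samples (exact permutation p = 0.00188, adjusted p = 0.015 over 8 relations) and rho = 0.82 (exact permutation p = 0.00917, adjusted p = 0.0367). Without the 2 samples farthest from the median sum r was 0.79. Emp2 had 17.7 to 26.3 fragments per 1000 epithelial marker fragments in vehicle and 13.9 to 21.7 in JHU083, ranges that overlap. These relations were examined after the values had been seen, and the part of epithelial RNA in the Emp2 difference was not tested. The sort for CD45, CD11b and F4/80 is meant to leave out epithelial cells, fibroblasts, endothelium and Schwann cells. Transcripts of the epithelial markers were nevertheless read in the sorted libraries, and their source was not tested.

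Pmp22 and Emp1 were higher in JHU083 while the epithelial markers were lower. Within groups Pmp22 had r = -0.06 and rho = -0.27 with the epithelial sum (exact permutation p = 0.887 and p = 0.469, adjusted p = 0.887 and 0.536), with r = -0.53 without the 2 farthest samples. Emp1 had r = 0.71 and rho = 0.70 (exact permutation p = 0.0355 and p = 0.0414, adjusted p = 0.071 and 0.11), and r = 0.70 without those 2 samples. Emp3 had r = -0.68 and rho = -0.61 (exact permutation p = 0.0509 and p = 0.0883, adjusted p = 0.0814 and 0.141), and r = -0.46 without them. Neither the relation of Emp1 nor that of Emp3 passed after adjustment.

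**Figure D3:**
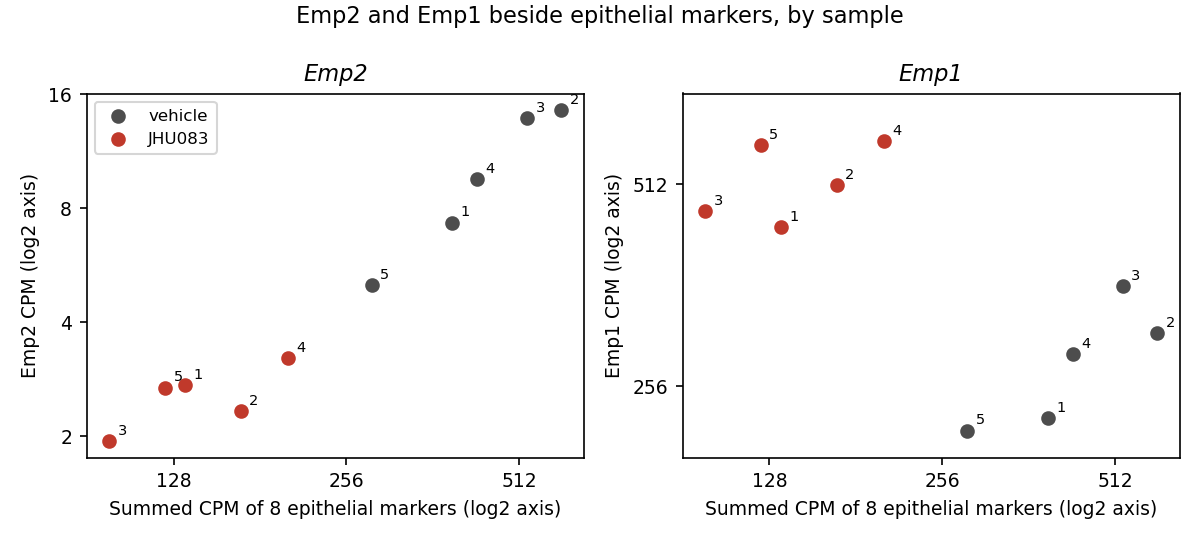
CPM of Emp2 (left) and Emp1 (right) against the summed CPM of 8 epithelial markers in each library, numbered by replicate, on log2 axes. Emp2 and the markers are both lower in the 5 JHU083 libraries (98.9 to 202 CPM for the sum), whereas Emp1 is higher there.

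Fibroblasts and endothelium also express Pmp22 and Emp1 in many tissues. Of 8 fibroblast markers, 6 fell and 0 rose, where 18.3% of all loci were called lower, with sums of 107 to 231 CPM in vehicle and 28.5 to 118 CPM in JHU083. With the fibroblast sum within groups, r was 0.39 for Pmp22, 0.31 for Emp1, 0.56 for Emp2 and -0.81 for Emp3, and rho was 0.21, 0.28, 0.58 and -0.81. The exact permutation p for r was 0.336, 0.354, 0.0236 and 0.00944 (adjusted p = 0.405, 0.405, 0.063 and 0.0378 over the 8 relations), and for rho 0.562, 0.397, 0.0615 and 0.00569 (adjusted p = 0.562, 0.529, 0.123 and 0.0367). Without the 2 farthest samples r was -0.16, 0.08, 0.39 and -0.62, so the relation of Emp3 was weaker there. Of 4 endothelial markers tested, 1 fell, namely Pecam1, which leukocytes also express, and Cdh5, Kdr and Vwf did not pass, with log2 differences of -0.49, -0.15 and -0.01. Of 8 Schwann cell markers, 3 could be tested and 1 was called higher, and the sum of the list ran from 38.5 to 44.6 CPM in vehicle and from 45.9 to 52.4 CPM in JHU083. The lineage factor Sox10 and S100b reached at most 4 and 8 fragments in any library, and Cdh19 was listed at 0 in all of them. The myelin genes Mbp and Mag were detected, with up to 515 and 230 fragments. The part of Schwann cell RNA in the Pmp22 level was not tested. Mag was called higher by 0.30 (edgeR adjusted p = 0.0493) and Mbp, at 27.7 ± 2.69 and 31.5 ± 2.47 CPM (SD, n = 5), did not pass. The lists for mural cells and for T and NK cells had 0 genes past the threshold of 2 and 1 tested, and of 5 neutrophil markers 1 rose and 2 fell, against 18.4% of all loci higher and 18.3% lower.

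Within groups, members were also compared with one another, in 6 pairs. Emp1 and Emp2 had r = 0.83 over 10 samples (exact permutation p = 0.014, adjusted p = 0.074) and rho = 0.77 (exact permutation p = 0.0298, adjusted p = 0.148). Emp3 had r = -0.74 with Emp2 (exact permutation p = 0.0247, adjusted p = 0.074; rho = -0.71, exact p = 0.0494, adjusted p = 0.148) and r = -0.69 with Emp1 (exact permutation p = 0.0449, adjusted p = 0.0897; rho = -0.64, exact p = 0.0806, adjusted p = 0.161). Without the 2 samples farthest from the median these became 0.59, -0.50 and -0.46. None of the 6 relations passed after adjustment. For Pmp22 the values were 0.07 with Emp1, -0.01 with Emp2 and -0.33 with Emp3 (exact permutation p = 0.836, 0.982 and 0.362, adjusted p = 0.982, 0.982 and 0.543), with rho = -0.12, -0.03 and -0.19 (exact permutation p = 0.771, 0.953 and 0.646, adjusted p = 0.925, 0.953 and 0.925). Without the 2 farthest samples they were -0.27, -0.10 and -0.36.

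The wider claudin fold was followed through 47 listed genes, of which 45 had a locus. Only 8 were high enough to be tested, 25 were too low and 12 were listed at 0 in all libraries. Of the 8, 4 fell and 1 rose, 62.5% against 36.7% of all loci, and their median log2 fold change was -0.80. Those that fell were Cldn7, Cldn3 and Cldn4, claudins of tight junctions in simple epithelia, and Perp, a p53 target of epithelial adhesion. Cldn7 fell most, from 4.37 ± 1.54 to 0.48 ± 0.31 CPM (SD, n = 5); on the log2 scale this is -3.17 ± 0.39 (SE, edgeR adjusted p = 3.74e-05). Cldn3 fell by 1.69 (adjusted p = 0.000326), Cldn4 by 1.45 (adjusted p = 0.00238) and Perp by 1.32 on the log2 scale (adjusted p = 0.00822), beside the epithelial sums given above. Cldn7 is so low in JHU083, with as few as 2 fragments in a library, that it reached the test through its vehicle level, so the count describes the genes high enough to test and not the whole list. Cldnd1, a claudin-domain protein found in many tissues, was called higher by 0.26 (adjusted p = 0.0258). That call was lost with library-size scaling, without the filter on low counts and with a replicate block (edgeR adjusted p = 0.137, 0.063 and 0.0813). It was also lost without vehicle replicate 4 or 5 or JHU083 replicate 1 or 4 (edgeR adjusted p = 0.064 to 0.0744), and then 0 listed relatives were called higher. Gsg1, Cldn1 and Cldn12, at 0.84 to 2.36 CPM in vehicle, did not pass.

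Proteins reported to bind or act with the family were taken as a list of 15 genes, and 14 could be tested. Of these, 4 rose and 3 fell, 50% against 36.7% of all loci, and the median log2 fold change was 0.09. P2rx7, the ATP-gated channel that binds members of the family, rose from 120 ± 19.1 to 175 ± 23.5 CPM (SD, n = 5); on the log2 scale this is 0.54 ± 0.12 (SE, edgeR adjusted p = 0.00278), with overlapping groups. Abca1, the cholesterol exporter linked to PMP22, rose from 355 ± 68.2 to 721 ± 162 CPM (SD, n = 5), with 1.02 ± 0.16 as log2 fold change (SE, edgeR adjusted p = 0.000332), also with overlap. PMP22 has been reported in a complex with integrin α6β4, and the genes of those subunits went apart. Itga6 rose from 55.9 ± 4.83 to 110 ± 29.4 CPM, and Itgb4, the epithelial partner of the α6 subunit, fell from 36.3 ± 14.8 to 6.65 ± 2.86 CPM (SD, n = 5). Their log2 fold changes were 0.98 ± 0.15 and -2.44 ± 0.32 (SE, edgeR adjusted p = 0.000201 and 7.25e-05).

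The kinases linked to EMP2 differed as well. Src rose by 0.32 (edgeR adjusted p = 0.00388) and Ptk2, which encodes focal adhesion kinase, fell by 1.19 on the log2 scale (adjusted p = 0.0118) from a low level, 7.63 ± 3.62 to 3.36 ± 1.24 CPM (SD, n = 5). Tjp1, a tight junction scaffold, fell by 1.43 (adjusted p = 0.0122), but on deposited FPKM with pseudocounts of 1 and 0.1 the difference was -0.13 and -0.23 and did not pass (limma adjusted p = 0.573 and 0.66). Canx and Rer1, which retain and return PMP22 in the secretory pathway, had log2 differences of -0.02 and -0.12 and did not pass. Nor did Itgb1, Itgav, Itgb3, Itgb5 and Cav1, with differences from -0.69 to 0.18.

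Pmp22 was also cloned as growth arrest specific gene Gas3, and 5 other Gas genes were examined. Gas6, a ligand of the receptors Axl and Mertk that bridges dying cells to phagocytes, rose from 264 ± 31.2 to 439 ± 62.7 CPM (SD, n = 5), with 0.74 ± 0.11 as log2 fold change (SE, edgeR adjusted p = 0.000138). Gas7 was called higher by 0.20 (adjusted p = 0.0262). Gas7 no longer passed under library-size scaling, without the low-count filter and with a replicate block (edgeR adjusted p = 0.149, 0.115 and 0.0793), and also without vehicle replicate 2, 3 or 4 or JHU083 replicate 1 (adjusted p = 0.0548 to 0.0717). Gas2 was called lower by a log2 difference of -1.01 (adjusted p = 0.0156) at a low level, 1.80 ± 0.62 against 0.89 ± 0.14 CPM (SD, n = 5), and did not pass on deposited FPKM. Gas1 and Gas5 did not pass. So 2 of 5 were called higher and 1 lower, 60% against 36.7% of all loci, with a median log2 fold change of 0.17.

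**Figure D4:**
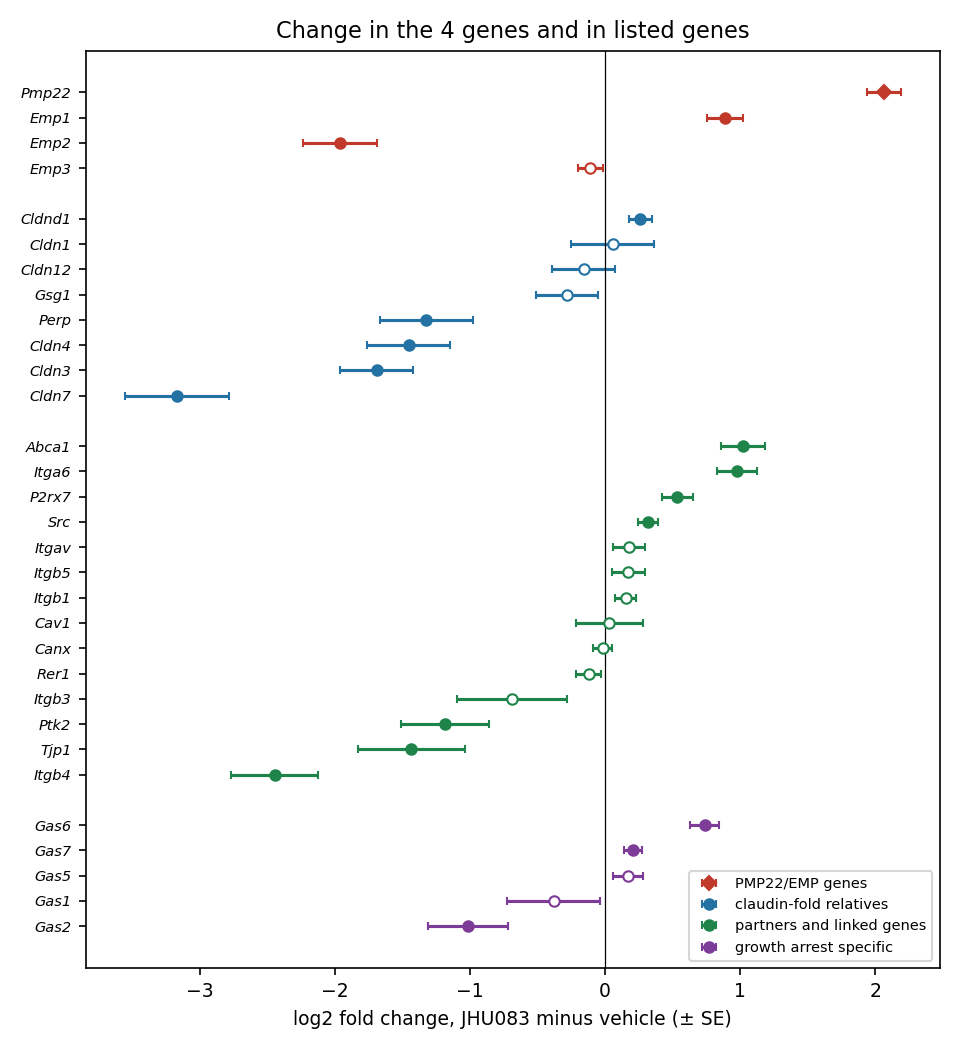
Log2 fold change (JHU083 minus vehicle, bars are SE) of the 4 genes and of the tested genes of 3 lists. Filled circles passed an edgeR adjusted p under 0.05, open circles did not, and Pmp22 (diamond) was not tested. Pmp22 (2.06) and Emp2 (-1.96) lie at opposite ends of the family, and Cldn7 (-3.17) is lowest of all genes drawn.

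For each member, the 3 loci with the most similar pattern over the 10 samples were listed from 10125 loci of average log2 CPM of at least 2. The measure was Pearson's r of log2 CPM over both groups, which includes the treatment difference and is a description, and r within groups is given beside it. For Pmp22 they were Trim8 (r = 0.99, within groups 0.79), Plekha1 (0.98 and 0.77) and Lipa (0.98 and 0.64), which encodes lysosomal acid lipase. Their log2 fold changes were 0.30, 0.53 and 0.65, far below that of Pmp22. For Emp1 they were Zfp655 (r = 0.99, within groups 0.94), Klf4 (0.99 and 0.93), a zinc finger transcription factor, and Haus2 (0.99 and 0.93). The Klf4 level was 88.2 ± 24.2 CPM with vehicle against 241 ± 50.0 with JHU083 (SD, n = 5). As the treatment difference entered the choice of these loci, no test of it is given.

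For Emp2 the most similar loci were Cx3cl1 (r = 0.99, within groups 0.95), Afap1 (0.99 and 0.95) and Gpc1 (0.99 and 0.98), with log2 differences of -2.12, -0.97 and -0.82. Cx3cl1 encodes the membrane-bound chemokine fractalkine and Gpc1 a heparan sulphate proteoglycan. The Cx3cl1 level was 7.57 ± 2.65 CPM with vehicle against 1.73 ± 0.38 with JHU083 (SD, n = 5). For Emp3 they were Tmed3 (r = 0.99, within groups 0.98), Spr (0.98 and 0.98) and Fis1 (0.98 and 0.98), with log2 differences of -0.13, -0.19 and -0.16.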

How the data were processed

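Polyadenylated RNA of 10 sorted macrophage samples was sequenced as paired Illumina libraries with a kit that does not mark strand, per the labels' protocols. The submitters' processing notes name TopHat2 2.1.1 and GRCm38; the counting program and annotation are not given in the sources used here. The authors deposited a column headed as raw counts whose values are not whole, given the unit of expected counts here. From the values, they are fragment counts multiplied by 1 step per sample (0.888 to 1.17): division by the step gave whole numbers, within 0.05, for 99.8% to 100.0% of positive values. The recovered, rounded fragments were used. The authors deposited a second, normalized column, which from its values is FPKM.

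Loci were filtered with filterByExpr and TMM-scaled, and JHU083 was compared with vehicle in edgeR 4.0.16 (R 4.3.3) by the quasi-likelihood F-test, with no covariate and Benjamini-Hochberg adjustment over all 12500 loci. SE is the absolute log2 fold change over the square root of F, and a prior count of 2 went into log2 CPM. 1 row without a gene symbol (at most 0.00209% of fragments) was left out. The fit was tested on simulated data. Ratios and correlations were tested by exact permutation (Python 3.11.15, scipy 1.17.1). Intervals cover the spread between samples.

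Alternatives were DESeq2 1.42.0, limma-voom and limma on log2 FPKM (limma 3.58.1; loci of at least 0.5 FPKM in 5 samples), other scalings and filters, the deposited values rounded, loci or samples left out, whether a library had those loci at 0 as a covariate, and a replicate block. The members, lists and tests were chosen with earlier results of these data known, and the relations with marker sums after the values were seen. Genes are named if they are members, the 3 loci most like each, or list genes that passed, with those the text says did not. Upstream sequence is from RefSeq (GRCm38.p6), which matched all 4 members, and protein sequences were not used here. Some marker genes are not reported here.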

Additional observations from a re-analysis of the deposited data

Results flagged for a closer look

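In 32 groups of 5 values (the 4 members and the 12 loci most like them, in each treatment), 3 held a sample far from the others of its group, where chance gives about 1 in 20, or 1.6. The 12 loci were chosen for likeness to the members, so the groups are not independent and 1.6 is only a guide. For Pmp22, vehicle replicate 4 stood at 3.32 log2 CPM, below the remaining vehicle samples at 3.65 to 3.76. JHU083 replicate 3 was the lowest of its group for Gpc1, at 4.69 log2 CPM against 4.92 to 4.98. It was the highest of its group for Tmed3, at 6.66 log2 CPM against 6.20 to 6.34.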

How the results depend on the processing

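Emp1 and Emp2 kept their direction and call, and Emp3 stayed short of the threshold, under all 21 alternatives run. Adjusted p ranged from 7.48e-10 to 0.00107 for Emp1, from 5.24e-11 to 0.00145 for Emp2 and from 0.0819 to 0.607 for Emp3 (edgeR, DESeq2 or limma). Apart from single samples left out, log2 fold changes ran from 0.81 to 0.90 for Emp1, from -2.05 to -1.10 for Emp2 (the last with FPKM and a pseudocount of 1), from -0.19 to -0.07 for Emp3 and from 1.95 to 2.08 for Pmp22. The count of claudin-fold relatives called higher was 0 with library-size scaling and with the replicate block, and 0 to 1 with single samples left out. Without the filter on low counts it stayed at 1 although Cldnd1 lost its call, and 6 relatives were called lower, against 4 in the main fit. The count of Gas genes called higher was 1 with library-size scaling, without the filter on low counts and with the replicate block, and 1 to 2 with single samples left out; the count called lower was 0 on FPKM with either pseudocount. The cause was not tested. With the replicate block the ratios of Emp1 to Emp2 (2.72), Emp1 to Emp3 (1.01) and Emp3 to Emp2 (1.71) had an exact permutation p of 0.0625, the minimum for 5 pairs. Same-numbered samples correlated from -0.57 to 0.09 in their deviations from group means, and 0 of 5 correlated best with their own number. The samples were therefore treated as unpaired, though with 5 per group this check cannot exclude a pairing by design. With the block the log2 fold changes were 0.90 for Emp1, -1.88 for Emp2 and -0.11 for Emp3. The within-group r of Pmp22 with Emp1 changed sign to -0.27 without the 2 farthest samples. With 1 sample left out, 1821 to 2899 loci were higher and 1900 to 2930 lower. A gene with 3 fragments or fewer in every library cannot be compared at these depths.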

Other observations

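The authors deposited a scaled count and an FPKM for each locus, and the ratio between them was read for the 4 members. For Emp2 this ratio was nearly constant, from 47.5 to 47.6, over the 10 libraries. For Pmp22 it ran from 21.9 to 23.3 in vehicle and from 21.5 to 23.4 in JHU083. For Emp1 it ran from 35.8 to 36.9 and from 36.8 to 37.0, and for Emp3 from 7.25 to 7.62 and from 7.22 to 7.35. The deposited columns thus did not keep a fixed proportion for Pmp22, Emp1 and Emp3, and the groups overlapped for each gene.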
